A study of Mus musculus with 3 samples.

Results

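The phagocyte NADPH oxidase genes Cybb, Cyba, Ncf1, Ncf4, Rac1, Rac2 and Hvcn1 were taken by symbol, 7 of the 19723 genes in the count table. They were measured by RNA sequencing in 3 pools of sorted cells, each a single library, and all mice were BALB/c females between 6 and 8 weeks old. One pool held MDSCs (immature myeloid cells with suppressive activity, known as myeloid-derived suppressor cells) from 20 tumours of alisertib-treated animals; the drug inhibits the mitotic kinase Aurora A. Another held MDSCs from 20 control tumours, whose mice the labels call both untreated and control treated. The last held neutrophils sorted out of marrow from 5 wild-type animals. The labels give neither the tumour line, the dose, nor the surface markers of the sort. Because each group was 1 pool, the spread between mice is unknown. Every difference below is between libraries, and the intervals cover counting error only.

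The oxidase is an enzyme complex that carries electrons from NADPH across the membrane to oxygen and so makes superoxide, the first product of the respiratory burst with which neutrophils and macrophages kill microbes. Cybb encodes gp91phox (NOX2), the subunit that holds the electron path, and Cyba encodes p22phox, its partner in the membrane flavocytochrome. In resting cells p47phox (Ncf1) and p40phox (Ncf4) stay in the cytosol, and on activation they move to the membrane with a GTP-bound Rac protein. The proton channel Hv1, encoded by Hvcn1, offsets the charge that the oxidase moves. Loss of gp91phox or of its partners causes chronic granulomatous disease, and superoxide from the complex is one of the products through which MDSCs are known to restrain T cells.

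Upstream sequence was in the RefSeq promoter table (GRCm38.p6) for 3 of the 7 genes. The 250 bases before the start site are printed for each of these 3, the membrane pair Cybb and Cyba and the organiser Ncf1, and were not picked by level. Capitals mark matches, on either strand, to CCAAT (the CCAAT box) and to GAAANNGAA (an interferon regulatory factor, IRF, pattern). Searches for GAGGAA, a core bound by the myeloid factor PU.1, and for TTNNGCAA, a C/EBP pattern, found no match in these windows.
Cybb (chrX:9469325-9469574, minus strand): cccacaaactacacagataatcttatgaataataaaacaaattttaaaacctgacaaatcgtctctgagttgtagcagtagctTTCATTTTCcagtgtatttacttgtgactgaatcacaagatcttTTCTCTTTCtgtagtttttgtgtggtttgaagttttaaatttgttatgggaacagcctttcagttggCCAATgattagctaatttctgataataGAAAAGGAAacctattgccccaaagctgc
Cyba (chr8:122432941-122433190, minus strand): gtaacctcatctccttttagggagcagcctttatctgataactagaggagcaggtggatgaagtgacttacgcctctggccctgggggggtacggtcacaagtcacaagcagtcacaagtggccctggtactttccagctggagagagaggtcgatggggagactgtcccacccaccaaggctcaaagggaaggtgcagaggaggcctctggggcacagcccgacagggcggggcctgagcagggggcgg
Ncf1 (chr5:134229626-134229875, minus strand): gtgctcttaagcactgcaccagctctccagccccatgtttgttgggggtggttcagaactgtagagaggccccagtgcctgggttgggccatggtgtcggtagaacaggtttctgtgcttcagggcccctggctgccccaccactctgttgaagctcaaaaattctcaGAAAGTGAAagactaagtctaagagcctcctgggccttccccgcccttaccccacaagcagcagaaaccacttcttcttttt

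The Cybb window held 1 CCAAT match, at -56 to -52 from the RefSeq start site, and 3 IRF matches, at -167 to -159, -123 to -115 and -29 to -21. The Ncf1 window held 1 IRF match, at -82 to -74, and the Cyba window held no match. None of the matches overlapped another. Of 32851 windows of this length in the table, 33.8% held CCAAT, 7.13% held GAAANNGAA at least once, 23.3% held GAGGAA and 9.56% held TTNNGCAA, and 19 windows held 3 or more matches to the IRF pattern. A match is a run of letters and not a measured binding site. In GENCODE M21 the Cybb window lies in an intron of longer Cybb transcripts, the Cyba window lies within the span of the gene model Gm20388 but in no exon, and the Ncf1 window lies in no gene.

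The libraries held 19373087 (alisertib), 21959748 (control) and 21987097 (bone marrow) counts. Levels are given as CPM, counts scaled to a common library size after TMM scaling. A gene was called when the bound of its 95% interval nearest to 1 reached 2-fold, and a lower rule used 1.5-fold. Summed CPM of 10 neutrophil markers were 13512 with alisertib, 33219 in control and 102405 in bone marrow, and none of the 10 was at 0 counts in any library. Most of the bone marrow sum came from S100a8, S100a9, Ltf and Ngp, at 15223, 30389, 17724 and 21373 CPM. All 10 were lower in control than in bone marrow, at log2 ratios from -6.41 to -0.09. The smallest difference was that of Csf3r, at 1725 CPM with alisertib, 2226 in control and 2368 in bone marrow. In the same order of libraries, the sums were 582, 616 and 497 for 10 monocyte and macrophage markers. They were 43.4, 5.63 and 207 for 7 B cell markers, and 66.0, 44.9 and 184 for 7 eosinophil markers. They were 37.4, 15.7 and 144 for 10 T and NK cell markers, of which Cd3d alone made up 6.21, 8.70 and 136. Of the 9 T and NK cell markers past the filter, 6 were called higher and 2 lower in alisertib MDSCs than in bone marrow. The monocyte and macrophage sums hide opposite moves, with 4 markers called higher and 2 lower in control than in bone marrow. Cd68 stood at 345 CPM in control against 24.3 in bone marrow, and Ly6c2 at 12.9 against 240. Among the eosinophil markers, 1 was called higher (Siglecf) and 5 lower in control than in bone marrow. The sums were 6.94, 3.53 and 5.94 for 5 dendritic cell markers, 5.78, 6.71 and 78.5 for 5 erythroid genes and 17.6, 16.3 and 5.68 for the 3 epithelial markers in the table. Cdh1 alone made up 6.17, 7.01 and 5.46 of the epithelial sums. All 4 erythroid genes past the filter were called lower in both tumour libraries than in bone marrow. At 0 counts were the NK gene Ncr1 with alisertib, the eosinophil gene Epx in control, the plasmacytoid dendritic cell gene Siglech in both tumour libraries, and the T cell gene Trac and the epithelial gene Epcam in bone marrow. In pooled bulk RNA, fewer cells of a type and less RNA per cell cannot be told apart. The part that these cell type markers have in the ratios below was not tested.

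The catalytic subunit gene was far lower in both tumour libraries than in bone marrow, while its membrane partner was much closer between them. Cybb (ENSMUSG00000015340, chromosome X, 9435252 to 9487771 in GRCm38, minus strand) had 57143 counts in bone marrow, 2436 in control MDSCs and 1819 in alisertib MDSCs, which is 2477, 125 and 87.6 CPM. The bone marrow library stood far above both tumour libraries. Cybb was 19.9-fold lower in control MDSCs than in bone marrow (interval 19.1 to 20.7) and 28.3-fold lower in alisertib MDSCs (27.0 to 29.6), comparisons that share the bone marrow library. In control against bone marrow, 2.53% of the 13019 genes past the filter had a lower ratio than Cybb. Cyba (ENSMUSG00000006519, chromosome 8, 122424776 to 122432930, minus strand) had 13728, 7115 and 5924 counts in the same order, or 595, 364 and 285 CPM. It was 1.63-fold lower in control MDSCs than in bone marrow (1.59 to 1.68) and 2.09-fold lower in alisertib MDSCs (2.02 to 2.15). Under each of the other 3 scalings the interval bound of this last ratio fell just short of 2-fold, at log2 ratios between -1.03 and -1.04.

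The organiser gene Ncf1 lay between these. Ncf1 (ENSMUSG00000015950, chromosome 5, 134220053 to 134229625, minus strand) had 40056 counts in bone marrow, 14701 in control and 8058 with alisertib, or 1736, 753 and 388 CPM. It was 2.31-fold lower in control MDSCs (2.26 to 2.35) and 4.47-fold lower in alisertib MDSCs (4.37 to 4.58) than in bone marrow. Gtf2ird2, which overlaps 408 of the 3663 exon bases of Ncf1 on the opposite strand, stood at 99.8, 45.9 and 39.9 CPM. Ncf4, whose product binds the phosphoinositide of phagosome membranes (ENSMUSG00000071715, chromosome 15, 78244801 to 78262580, plus strand), had 19503, 12392 and 10129 counts, or 845, 634 and 488 CPM. Its ratios to bone marrow were the closest to 1 among the genes that were lower in tumour, 1.33-fold in control (1.30 to 1.36) and 1.73-fold with alisertib (1.69 to 1.77). Neither passed the 2-fold bound.

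Against bone marrow, the 2 Rac genes went in opposite directions. Rac2, the Rac protein found mainly in blood cells (ENSMUSG00000033220, chromosome 15, 78559167 to 78572783, minus strand), had 42436 counts in bone marrow, 16328 in control and 10717 with alisertib, or 1840, 836 and 516 CPM. It was 2.20-fold lower in control MDSCs (2.16 to 2.24) and 3.56-fold lower in alisertib MDSCs (3.49 to 3.64) than in bone marrow. Rac1, the widely expressed Rac that also drives lamellipodia (ENSMUSG00000001847, chromosome 5, 143503634 to 143528036, minus strand), had 6347, 9911 and 7579 counts, or 275, 507 and 365 CPM. Of the 7 genes it alone was lowest in bone marrow, 1.84-fold higher in control MDSCs (1.79 to 1.90) and 1.33-fold higher in alisertib MDSCs (1.28 to 1.37), neither past the 2-fold bound. Its exons overlap those of Daglb on the opposite strand by 2309 of 4496 bases. Daglb stood at 11.4 CPM in control and 19.8 in bone marrow, 1.73-fold lower in control (1.48 to 2.05). The part that reads of overlapping genes have in the ratios of Ncf1, Rac1 and Hvcn1 was not tested.

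**Figure D1:**
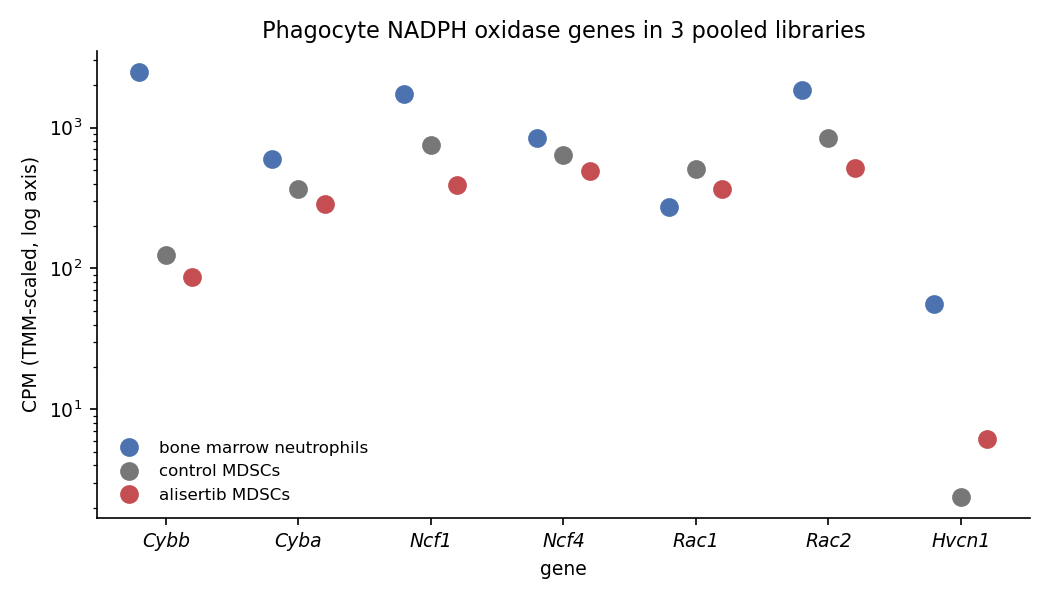
Levels of the 7 oxidase genes (x axis) in CPM on a log axis (y axis), with 1 point for each pooled library and no error bars because each group is 1 library. Bone marrow is the highest point for 6 genes, and Cybb drops from 2477 CPM in bone marrow to 125 and 87.6 CPM in the tumour libraries.

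The proton channel gene Hvcn1 was scarce in the tumour libraries. Hvcn1 (ENSMUSG00000064267, chromosome 5, 122206804 to 122242297, plus strand) had 1285 counts in bone marrow, 47 in control and 127 with alisertib, or 55.7, 2.41 and 6.12 CPM. It was 22.9-fold lower in control MDSCs than in bone marrow (17.3 to 31.7) and 9.07-fold lower in alisertib MDSCs (7.58 to 11.0). Only 2.23% of genes had a lower ratio between control and bone marrow. B cells also express this channel, and the 7 B cell markers summed to 207 CPM in bone marrow, 5.63 in control and 43.4 with alisertib, the same order of libraries as Hvcn1. The eosinophil sum and the T and NK cell sum had this order too, but in bone marrow Cd3d alone made up 136 of the 144 CPM of the latter. All 7 B cell markers were called lower in control than in bone marrow. Hvcn1 shares 1574 of its 3563 exon bases with Tctn1 on the opposite strand, and Tctn1 held more counts than Hvcn1 in both tumour libraries (204 in control and 176 with alisertib, against 193 in bone marrow).

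Of the 7 genes, 4 were called lower in control MDSCs than in bone marrow (Cybb, Hvcn1, Ncf1 and Rac2) and none higher, where 22.9% of all genes were called lower and 18.3% higher. In alisertib MDSCs against bone marrow, 5 were called lower (the same 4 and Cyba) and none higher, against 22.3% lower and 18.7% higher over all genes. The median log2 ratio of the 7 was -1.14 in control and -1.83 with alisertib, beside medians of -0.14 and -0.09 over all genes. The members spread widely around those medians, from -4.52 to 0.88 in control and from -4.82 to 0.41 with alisertib.

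**Figure D2:**
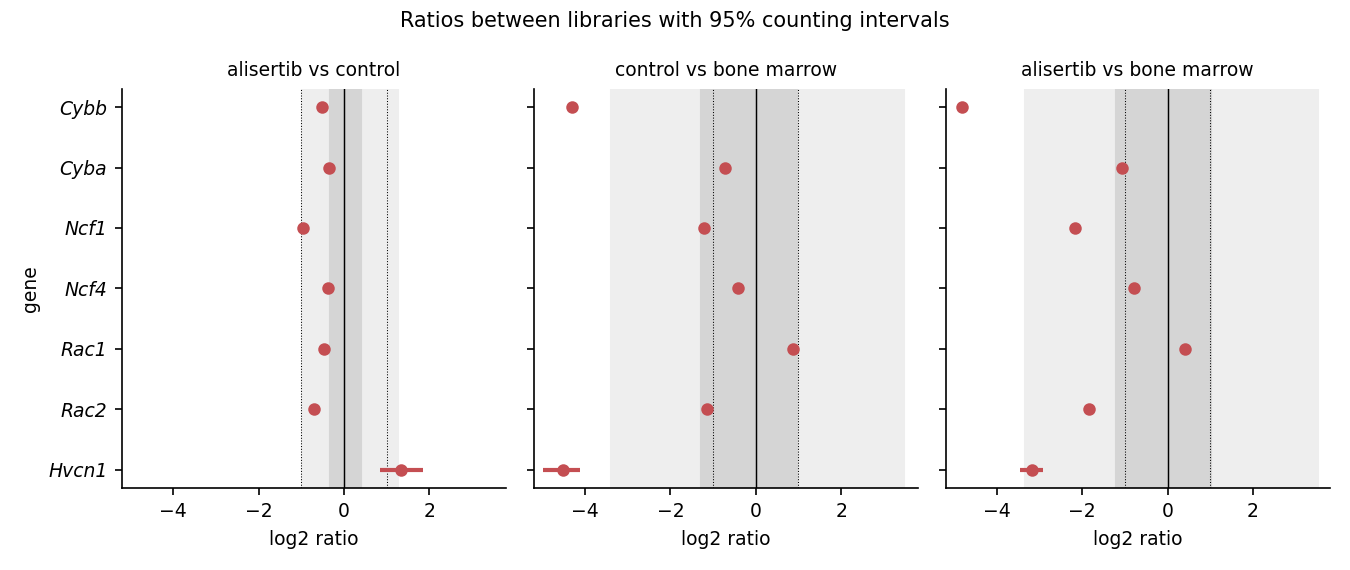
Log2 ratio (x axis) of each oxidase gene (y axis) in the 3 library comparisons, with bars for the 95% counting interval, which is narrower than the point for every gene but Hvcn1. Dark and light grey bands hold the middle 50% and 90% of the 13019 genes and dotted lines mark 2-fold; Cybb and Hvcn1 lie left of the light band between control and bone marrow.

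Between alisertib and control MDSCs, 6 of the 7 genes were lower with alisertib and Hvcn1 was higher, and none passed the 2-fold bound, which 1.18% of all genes passed as lower and 1.80% as higher. Ncf1 came closest among the lower genes, at 388 against 753 CPM, a ratio of 1.94-fold (1.89 to 1.99). Rac2 was 1.62-fold lower (1.58 to 1.66). These 2 passed the 1.5-fold bound, as did 4.92% of all genes. Cybb was 1.42-fold lower (1.34 to 1.51), Rac1 1.39-fold (1.35 to 1.43), Ncf4 1.30-fold (1.27 to 1.33) and Cyba 1.28-fold (1.23 to 1.32). The median log2 ratio of the 7 was -0.47, beside 0.00 over all genes. Scaling by total counts raised every log2 ratio of this comparison by 0.27 and moved Ncf1 to -0.69, Rac2 to -0.43, Rac1 to -0.21, Ncf4 to -0.11 and Cyba to -0.08. With it Rac2 no longer passed the 1.5-fold bound. All 10 neutrophil markers were lower in the alisertib library than in control, with a median log2 ratio of -1.49 and 7 called. That median drop was larger than the one of the oxidase genes, but the ranges overlapped. The markers ran from -3.02 to -0.37 (Csf3r), and the oxidase genes from -0.96 to 1.34.

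Hvcn1 was the exception, at 6.12 CPM with alisertib against 2.41 in control, 2.53-fold higher (1.81 to 3.63). It passed the 1.5-fold bound, as did 4.74% of genes in that direction, and reached the 2-fold bound with total counts, at a log2 ratio of 1.61 in place of 1.34. With 127 against 47 counts it is the least precise of the 7 ratios. B cell markers were higher in the same library, 6 of 7 of them called, and Tctn1 was 1.23-fold lower (1.002 to 1.52). T and NK cell markers had 5 of the 9 past the filter called higher there and none lower.

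Ratios between 2 genes within a library do not depend on how libraries are scaled. By FPKM, a level per length of gene that the authors deposited, Cyba exceeded Cybb 1.84 times in bone marrow, 22.4 times in control MDSCs and 24.95 times in alisertib MDSCs. The shift in this ratio from bone marrow to control was 12.2-fold (11.6 to 12.8), and from control to alisertib 1.12-fold (1.04 to 1.20). Ncf1 was near Cybb in bone marrow, with an FPKM ratio of 1.11, and stood 9.57 and 7.02 times above it in control and alisertib MDSCs. Transcripts of the membrane partner and of the organiser outnumbered those of the catalytic subunit in the tumour libraries by far more than in bone marrow.

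The balance of the Rac genes shifted as well. The FPKM ratio of Rac2 to Rac1 was 9.90 in bone marrow, 2.44 in control and 2.09 with alisertib, a 4.06-fold shift from bone marrow to control (3.91 to 4.21) and a further 1.17-fold from control to alisertib (1.12 to 1.21). Ncf4 stood below Ncf1 in bone marrow, with an FPKM ratio of 0.882, and above it in control (1.53) and alisertib MDSCs (2.28). Hvcn1 and Cybb kept a similar ratio in bone marrow and control (0.0367 and 0.0315), with a shift of 0.858 whose interval of 0.640 to 1.15 includes 1. With alisertib that ratio was 0.114, which is 3.62 times that of control (2.58 to 5.08).

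**Figure D3:**
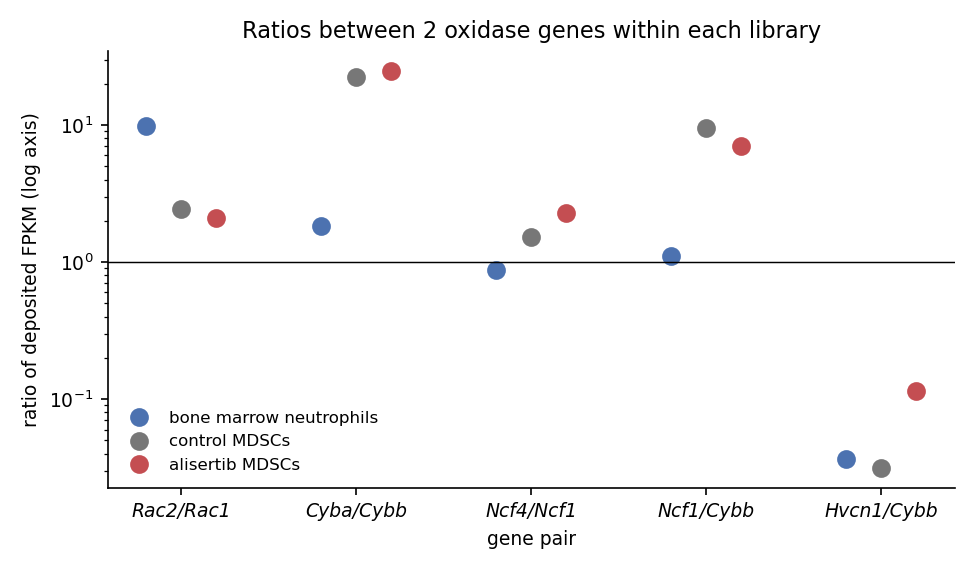
Ratio of deposited FPKM between 2 oxidase genes (y axis, log) for 5 gene pairs (x axis), with 1 point for each library and a line at equal levels. Cyba/Cybb rises from 1.84 in bone marrow to 22.4 and 24.95 in the tumour libraries, and Rac2/Rac1 drops from 9.90 to 2.44 and 2.09.

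On the per-length scale, Cyba had the highest FPKM of the 7 in each library, at 776 in bone marrow, 468 in control and 366 with alisertib. The order below it differed between the sources of the cells. In bone marrow it was Rac2 (599), Ncf1 (469), Cybb (422), Ncf4 (414), Rac1 (60.5) and Hvcn1 (15.5). In control MDSCs it was Ncf4 (306), Rac2 (268), Ncf1 (200), Rac1 (110), Cybb (20.9) and Hvcn1 (0.658), and alisertib MDSCs had the same order. Cybb ranked 67th of 23327 genes by FPKM in bone marrow, 2203rd in control and 2650th with alisertib. Cybb and Ncf4 in bone marrow differed by little, and without replicates their order is not supported by a spread. By counts per kilobase of annotated exons, Rac2 and Cyba changed places at the top in bone marrow.

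The gene patterns closest to each member, by Euclidean distance between log2 CPM centred over the 3 libraries among 7331 genes, rest on 3 points each and are a description. Nearest to Cybb were Svip (distance 0.08) and the monocyte surface gene Ly6c2 (0.09), the latter at 240, 12.9 and 9.20 CPM in bone marrow, control and alisertib. Nearest to Ncf1 were Smpdl3a (0.04) and Anxa3 (0.05), and nearest to Rac2 were Celsr3 and Esyt1 (0.01 each). Nearest to Cyba were Pld4 and Cemip2 (0.01 each), to Ncf4 Git2 and Tmem181a (0.01 each), and to Rac1 Pex13 (0.0038) and Necap2 (0.01). Hvcn1 had Prc1 (0.11) and Irf2bp1 (0.12). Among the members, Cyba and Ncf4 (0.23) and Ncf1 and Rac2 (0.24) were the closest pairs, and Cybb and Rac1 the farthest apart (4.26).

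Regulators of oxidase assembly and of Rac were mostly lower in the tumour libraries. The list holds genes that act for the oxidase or Rac and also genes that restrain them: Arhgap15, Arhgap25, Arhgdia, Arhgdib and Nrros. Of its 23 genes, 13 were called lower and 1 higher in control MDSCs against bone marrow, with a median log2 ratio of -1.31, and 17 lower and none higher in alisertib MDSCs. Over all genes, 22.9% were called lower and 18.3% higher in control, and 22.3% and 18.7% with alisertib. Mapk14, the p38 kinase that phosphorylates p47phox, was 14.4-fold lower in control (13.4 to 15.6), at 35.1 against 508 CPM. The phosphoinositide 3-kinase gene Pik3cd was 13.6-fold lower (12.5 to 14.9) and Pik3c3, which makes the lipid that p40phox binds, 8.18-fold lower (6.31 to 10.9). Also lower in control were the kinase gene Pak1 (6.04-fold), the GTPase regulator gene Arhgdib (5.31-fold) and the protein kinase C gene Prkcb (4.91-fold). Cybc1, whose product is needed to make stable gp91phox and p22phox protein, had 85.9 CPM in bone marrow, 31.0 in control and 21.4 with alisertib, a 2.77-fold decrease in control (2.53 to 3.04). Rap1a, a small GTPase found with the flavocytochrome, was 1.64-fold lower in control, short of the 2-fold bound. The 1 gene called higher, chosen here after its value was seen, was the kinase gene Syk of Fc receptor and integrin signalling, at 2381 against 981 CPM. Between the tumour libraries, Arhgap15, a GTPase-activating protein for Rac, was 2.80-fold lower with alisertib (2.38 to 3.30) and Prkcb 2.35-fold lower (2.11 to 2.63). Over all genes 1.18% were called lower in this comparison, and with total counts neither of these 2 was called. The 1.5-fold bound was passed by 3 genes as lower and by 2 as higher, Pik3c3 (2.22-fold, 1.64 to 3.06) and Pik3cd (1.84-fold, 1.66 to 2.04), and with total counts 1 gene of the list was called higher.

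NADPH supply genes were lower as well. Of 10 genes past the filter that make NADPH or feed the pentose phosphate pathway, all 10 had a ratio below 1 in control MDSCs against bone marrow. Of these, 6 were called lower and none higher, with a median log2 ratio of -1.70. Over all genes, 22.9% were called lower and 18.3% higher, with a median of -0.14. G6pdx, the enzyme that starts the pathway, had 551 CPM in bone marrow, 125 in control and 105 with alisertib, and was 4.41-fold lower in control (4.22 to 4.61). The transketolase gene Tkt was 6.12-fold lower in control (5.92 to 6.33) and 13.3-fold lower with alisertib (12.7 to 13.9). It was the single gene of this list called between the tumour libraries, 2.18-fold lower with alisertib (2.06 to 2.30), and not with total counts. In that comparison 1.18% of all genes were called lower. The cytosolic isocitrate dehydrogenase gene Idh1 (6.18-fold), Pgls (4.50-fold) and the NAD kinase gene Nadk (3.57-fold) were also lower in control than in bone marrow.

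Receptors that prime or trigger the burst were mixed. Of 15, 7 were called higher and 1 lower in control MDSCs against bone marrow, beside 18.3% and 22.9% of all genes. With total counts 5 of them were called higher. Ptafr, the receptor for platelet-activating factor, stood at 1369 against 190 CPM, 7.20-fold higher (6.97 to 7.44), and the lipopolysaccharide receptor gene Tlr4 was 6.56-fold higher (6.20 to 6.94). The Fc receptor genes Fcgr1 (3.54-fold) and Fcgr3 (2.98-fold) were higher, as was Csf2rb (3.74-fold), which has a close copy that can share reads. The leukotriene receptor gene Ltb4r1 was 2.90-fold lower. None of the 15 was called between the tumour libraries, where only 1.18% of all genes were called lower and 1.80% higher.

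Enzymes that handle superoxide and peroxide included genes called in each direction. Sod2, the mitochondrial superoxide dismutase, had 21.9 CPM in bone marrow, 525 in control and 528 with alisertib, 24.0-fold higher in control (21.9 to 26.3). Thioredoxin reductase, Txnrd1, was 11.5-fold higher and the peroxiredoxin gene Prdx1 4.54-fold higher. Mpo, which turns peroxide into hypochlorous acid and is transcribed early in neutrophil maturation, had 1198 counts in bone marrow and 15 in control, 65.5-fold lower (40.8 to 121). Catalase, Cat, was 8.45-fold lower and the glutathione peroxidase gene Gpx1 3.23-fold lower. Of the 14 genes of this list, 3 were called higher and 3 lower in control against bone marrow, shares close to the 18.3% and 22.9% of all genes. None was called between the tumour libraries (1.18% lower and 1.80% higher over all genes), though Prdx1 was called higher with total counts.

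Among 12 transcription factor genes past the filter that are known at oxidase promoters or in myeloid cells, 5 were called higher and 2 lower in control against bone marrow. Over all genes the shares were 18.3% and 22.9%. Spi1, which encodes PU.1, had 723, 475 and 356 CPM in bone marrow, control and alisertib, 1.52-fold lower in control (1.48 to 1.56), and Irf8 1.40-fold lower (1.21 to 1.62). Cebpe, a factor of late granulocyte maturation, was 45.9-fold lower (37.7 to 57.0), at 4.97 against 229 CPM, and Cebpd 4.37-fold lower. Cebpb was 6.98-fold higher, Runx1 5.14-fold, Irf1 4.97-fold and Nfkb1 3.36-fold. None of the 12 was called between the tumour libraries, where only 1.18% of all genes were called lower and 1.80% higher.

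**Figure D4:**
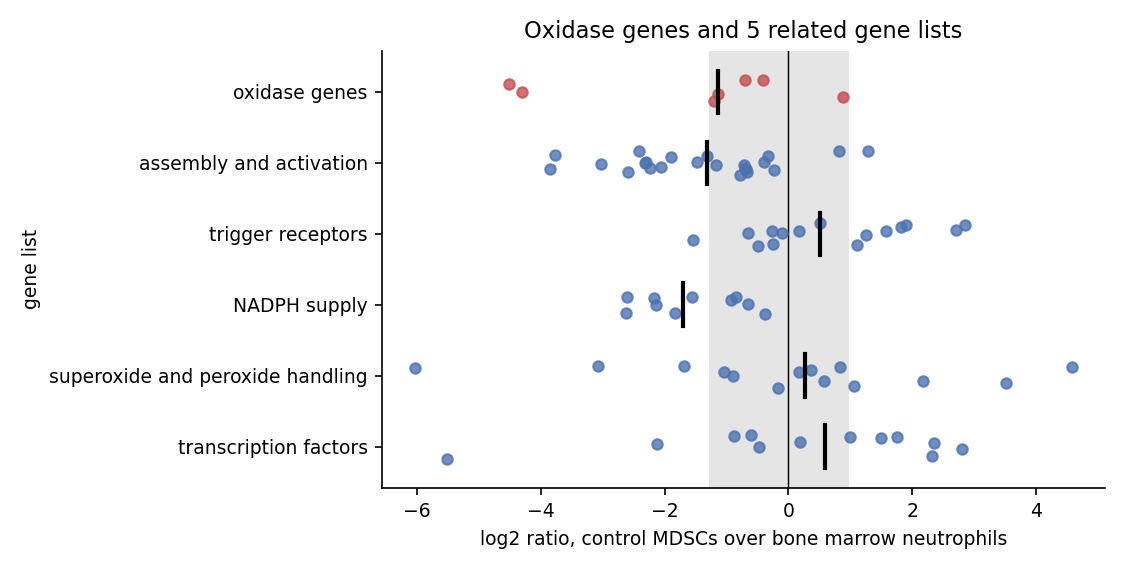
Log2 ratio of control MDSCs over bone marrow neutrophils (x axis) for the oxidase genes and 5 related gene lists (y axis), with 1 point per gene, a black bar at each list's median and a grey band for the middle 50% of all genes. All 10 NADPH supply genes lie below 0, with a median of -1.70, and the oxidase genes reach from -4.52 to 0.88.

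Of 10 genes of other NADPH oxidases, 3 were in the count table, each with few counts and named here after their values were seen. The levels of the other 7 were not analysed here. Nox1 had 7 counts with alisertib, 7 in control and 11 in bone marrow, and Rac3 had 7, 7 and 3. Noxo1, the counterpart of Ncf1 in the NOX1 complex, had 30, 20 and 7 counts and was called 4.52-fold higher with alisertib than in bone marrow (2.05 to 12.8).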

How the data were processed

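The authors deposited raw read counts per gene and FPKM values. Processing notes from the submitters name CASAVA 1.8, STAR 2.5.1b and builds mm9 and mm10, with no role or order. The counting tool, annotation and strand setting are not given in the sources used. Count ratios used (count + 0.5) over TMM-scaled library sizes (edgeR 4.0.16, R 4.3.3) with exact Clopper-Pearson 95% intervals. Genes with at least 1 CPM in at least 1 library were kept (13019, all 7 members included). Shifts of gene-pair ratios have log-scale (Wald) counting intervals. Without molecular identifiers, reads may repeat a molecule, so these intervals may be too narrow. With 1 library per group no p-value was computed. Symbols, positions and overlaps came from GENCODE M21 (GRCm38). The ratio and call procedure was run on counts simulated with counting error alone and given library sizes. Such a run cannot speak to spread between mice, repeated reads or errors of scaling. Named pathway genes were, per list and comparison, at most 6 called genes with the firmest bound and a higher library of at least 10 CPM, plus a fixed few, and the 2 nearest genes per member. Not every gene meeting this rule is reported here. Members and lists were chosen with earlier results of these data known. Alternatives were 3 other scalings (DESeq2 1.42.0 for one), a 10 CPM filter, no filter, and FPKM plus 1 or 0.1.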

Additional observations from a re-analysis of the deposited data

How the results depend on the processing

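No oxidase gene changed direction between any 2 libraries under the 7 alternatives, and the order of the 3 libraries was the same under the 4 scalings for each gene. The 10 CPM filter and no filter leave the ratio of every member as it was, so only the other alternatives could have changed a direction. The number of members past the 2-fold bound between alisertib and control was 0, but 1 (Hvcn1) with total counts, 1 when the 50 top genes were left out of those totals, and 1 by FPKM plus 0.1, where a call is a ratio of 2 with no interval. Cyba lost its call between alisertib and bone marrow under 3 scalings. Deposited FPKM gave the same shifts in gene-pair ratios as counts. Gene length and library size cancel in these shifts, so this was no separate check. The median of the 7 between alisertib and control ranged from -0.53 (DESeq2 size factors) to -0.21 (total counts). Assembly list genes called lower between alisertib and control went from 2 to 0 with total counts, and those called higher from 0 to 1. Members past the 1.5-fold bound in that comparison went from 3 to 2, without Rac2, with total counts and also with the 50 top genes left out. No paired analysis was possible because each group is 1 library. With 1 library per group no replicate could be left out, and depth limits Hvcn1 most.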
